A study of Rattus norvegicus with 4 samples.

Results

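The messenger RNAs of 10 genes of BMP and TGF-beta signalling were examined, 5 that encode ligands (Tgfb1, Tgfb2, Tgfb3, Bmp4 and Bmp7) and 5 that are target genes of these pathways (Id1, Id2, Id3, Id4 and Smad7). They were found on the array as every probe named for one of them or designed to one of its RefSeq transcripts, which gave 15 of 41012 probes, 5 for ligands and 10 for target genes. All 10 genes were among the 21365 that could be tested. The rule reads names only, and the genes were proposed with earlier results of these data known.

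Primary astrocytes from the cortex of Wistar rat pups (P1) were grown in medium with 10% fetal bovine serum, and neurons from the hippocampi of E18 mouse embryos were plated on top of them. CC is RNA of this co-culture as a whole. CC-CJ is RNA of the co-culture after cold jet, in which ice-cold saline is jetted over the well to wash the neurons off the astrocytes, and AA-CJ is RNA of astrocytes kept alone, which were jetted in the same way. Each of 4 Agilent whole rat genome arrays compared a Cy3-labelled CC-CJ sample with a Cy5-labelled sample of AA-CJ (2 arrays) or CC (2 arrays). The neurons were plated in Neurobasal medium with a B-27 supplement, and astrocytes alone were kept under similar conditions. Every group thus holds the same kind of serum-grown rat astrocytes, and the neurons in CC are mouse cells read by probes made for rat. The methods state that replicates came from different pools of animals, each pool of several animals. Whether the CC-CJ RNA on the AA-CJ arrays is the same as that on the CC arrays is not given in the sources used here, so that the 4 CC-CJ channels may hold fewer than 4 samples, and an SD over them may count repeat hybridizations. CC-CJ carried Cy3 on every array and no array had the dyes the other way round, so that an effect of the dye and one of the condition cannot be told apart on any single array. The CC and AA-CJ samples shared Cy5 and were compared through CC-CJ, where a dye effect shared by all arrays cancels. Only AA-CJ of these 2 was jetted, so that they differ in cold jet as well as in co-culture. In such whole cultures, fewer cells of a type and less RNA per cell cannot be told apart.

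TGF-beta and BMP ligands are secreted proteins that bind pairs of serine/threonine kinase receptors, and the receptors phosphorylate Smad proteins that enter the nucleus and regulate transcription. BMP signalling, through Smad1, Smad5 and Smad8, is best known for driving the Id genes, whose products bind basic helix-loop-helix (bHLH) factors and keep them from DNA. TGF-beta signalling acts mainly through Smad2 and Smad3, and both branches induce Smad7, an inhibitor that feeds back on the receptors. In the developing brain, BMPs favour astrocyte over neuron formation, and astrocytes are a source of TGF-beta.

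All 15 probes of the 10 genes were well above background in both dyes of all 4 arrays, and none was saturated. Over the whole array, between 50.1% and 62.6% of probes were well above background per channel. All 10 astrocyte markers listed for the check of the cell type, Gfap and Aqp4 among them, were measured in CC-CJ on 4 of 4 arrays. Markers of other cells were measured as well. Of 12 tested neuron markers, 4 rose and 0 fell in CC-CJ over AA-CJ, and 8 fell in CC-CJ against CC. Their summed intensity was 8764 to 9280 in AA-CJ, 8277 to 8723 in CC-CJ and 19664 to 20598 in CC. The 4 that rose were Gap43 (log2 difference 2.03), Dcx (0.87), Mapt (0.63) and Elavl4 (0.57), rises that the sums do not show. Of 7 tested microglia markers, 3 rose in CC-CJ over AA-CJ and 5 fell in CC-CJ against CC, with sums of 872.1 to 1002 in AA-CJ, 1257 to 1624 in CC-CJ and 2657 to 2783 in CC. Of 9 tested oligodendrocyte lineage markers, 2 fell in CC-CJ against CC (Sox10 and Mag), with sums of 3179 to 3642 in AA-CJ, 3044 to 3235 in CC-CJ and 3594 to 4330 in CC. In CC-CJ, 9 of 12 neuron markers and 5 of the 9 microglia markers with a probe were well above background on all 4 arrays, while Snap25, Aif1, Cx3cr1, Itgam, Mag and Olig2 were so on none. What part these cells have in the values of the 10 genes was not tested, nor was the binding of mouse mRNA to the rat probes.

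Promoter sequence is shown for Id1 and Id3, the target genes with the lowest unadjusted p in the comparison of CC-CJ with CC, in which 3 of the 4 Id genes were above 0 on both arrays after loess. RefSeq promoters of assembly GRCr8 were matched for 9 of the 10 genes, and the 250 bases before the start of the transcript were searched on both strands for GGCGCC, a GC-rich element bound by BMP-activated Smads, for CAGAC and GTCTAGAC, the single and palindromic Smad boxes, and for CANNTG, the E-box bound by bHLH factors. Capitals mark each match. Id1 lies on the + strand at chr3:161671314-161671563 and Id3 on the + strand at chr5:153656041-153656290.
Id1: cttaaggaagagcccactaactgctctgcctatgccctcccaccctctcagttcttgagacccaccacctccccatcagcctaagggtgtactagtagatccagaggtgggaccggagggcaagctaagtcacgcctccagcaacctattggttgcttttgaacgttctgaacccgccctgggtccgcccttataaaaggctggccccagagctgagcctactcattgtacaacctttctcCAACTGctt
Id3: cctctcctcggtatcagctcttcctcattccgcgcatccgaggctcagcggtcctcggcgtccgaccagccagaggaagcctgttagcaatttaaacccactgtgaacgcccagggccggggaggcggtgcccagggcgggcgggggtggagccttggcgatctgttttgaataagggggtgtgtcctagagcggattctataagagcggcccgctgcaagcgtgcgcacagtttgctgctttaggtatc
The Id1 promoter held a single E-box, 9 bases before the start, and the Id3 promoter held none of the 4 motifs. E-boxes also stood before Tgfb2, Tgfb3, Bmp4 and Id2, making 5 of 9 promoters against 65.5% of all 33469. GGCGCC stood only before Smad7 (2 matches, at 96 and 36 bases before the start), against 8.69% of all promoters. CAGAC stood only before Bmp4 (2 matches), against 42.9%, and GTCTAGAC in none of the 9, against 0.173%. These matches describe the letters of this window only.

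None of the ligands or target genes differed between co-cultured and lone astrocytes by more than the test could tell from the spread of the arrays. In CC-CJ against AA-CJ, the comparison that asks what co-culture does to astrocyte mRNA, 0 of the 10 genes had an adjusted p below 0.05 (limma, Benjamini-Hochberg over all genes), where 3.10% of all genes did. At an unadjusted p below 0.05 there were 3 of 10, Bmp7, Tgfb3 and Smad7, against 22.6% of all genes. The median log2 difference was 0.10 for the ligands and -0.02 for the target genes, beside -0.016 for all genes. Ligand values lay between -0.12 and 0.47, and target values between -0.32 and 0.13.

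Bmp7, a BMP of neural development, lay higher in CC-CJ on both arrays, with log2 ratios of 0.36 and 0.42. Its log2 difference was 0.39 (SE 0.089, 95% interval 0.18 to 0.60, adjusted p = 0.067), the lowest adjusted p of the 10 genes here. The size moved with the processing, to 0.61 with Agilent's log ratio (adjusted p = 0.159) and 0.50 with an offset of 16 (adjusted p = 0.0839). It was 0.48 in the authors' table (adjusted p = 0.0547). With median centring it was 0.34 (adjusted p = 0.0268), when 14283 of all genes were called. In normalised log2 intensity, Bmp7 measured 7.40 ± 0.019 in AA-CJ (SD, n = 2), 7.78 ± 0.019 in CC-CJ (4 channels) and 7.83 ± 0.16 in CC (n = 2). AA-CJ thus stood below both co-culture RNAs, but these intensities come from the same arrays and dyes as the ratios. Taken against their own CC-CJ, both CC arrays lay above both AA-CJ arrays for 26.2% of all genes. Its single probe lies at rn4 chr3:163727379-163727438 and carries an Ensembl transcript name. Both of its ratios were also below the limits that the methods of the study set per array, a mean plus 2 SD of 0.47 and 0.43.

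Tgfb3, whose product is a TGF-beta isoform, gave log2 ratios of 0.07 and 0.86, a difference of 0.47 (SE 0.17, 95% interval 0.06 to 0.88, adjusted p = 0.176). The arrays disagreed more for Tgfb3 than for any other of the 10 genes, as a single AA-CJ sample had a log2 intensity of 8.60 while the other, at 9.52, lay within the 9.47 to 9.59 of CC-CJ. Without the first AA-CJ array, the difference was 0.86 with an adjusted p of 0.0433, without the second it was 0.07, and with median centring in place of loess it was -0.02. Gpr4, a proton-sensing receptor, Tec, a tyrosine kinase, and Myo1f, a myosin of immune cells, came closest to the Tgfb3 pattern over the 4 arrays, at Euclidean distances of 0.23, 0.25 and 0.25 among 8407 genes compared. As they were picked by this distance, their highest ratios on the second AA-CJ array, at 0.76 to 0.86, follow from the choice.

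Tgfb1 gave 0.10 and 0.11, Tgfb2 gave 0.24 and -0.12, and Bmp4 gave -0.30 and 0.06. Tgfb1, made by many cells and a regulator of reactive astrocytes, was measured by a probe printed 10 times per array, whose spots had an SD of 0.088 to 0.11 in log2 ratio. Its difference of 0.10 had a 95% interval of -0.09 to 0.29, that of Tgfb2 (0.06) one of -0.19 to 0.31, and that of Bmp4 (-0.12) one of -0.39 to 0.15.

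Among the target genes, Smad7 had the ratios farthest from 0, at -0.27 and -0.37. Its log2 difference was -0.32 (SE 0.12, 95% interval -0.61 to -0.03, adjusted p = 0.189), and AA-CJ, at 10.36 ± 0.091 (SD, n = 2), lay above the 10.04 ± 0.023 of CC-CJ (4 channels) in log2 intensity. Id1 gave -0.18 and 0.14, Id3 gave -0.06 and 0.32, and Id4 gave 0.12 and -0.04, so that the arrays differed in sign for all 3. Id2 gave -0.11 and -0.13. The 95% intervals of the 4 Id genes lay within -0.33 and 0.38. For these genes the values rest on the loess step, which removes a trend of the dye ratio with intensity: with median centring alone, the differences were -0.88 for Id1, -0.86 for Id2, -1.0 for Id3, -0.68 for Id4 and -0.94 for Smad7 (adjusted p = 0.000653), while 14283 of all genes were then called in this comparison.

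Counted by array, 3 of 10 genes were above 0 on both arrays (Tgfb1, Tgfb3 and Bmp7), against 29.3% of all genes, and 2 of 10 were below 0 on both (Id2 and Smad7), against 36.2%. The 3 above 0 were all ligands and the 2 below 0 were both target genes, but both counts lay near or below the share of all genes. Id2 was below 0 on both arrays only through its Ensembl-named probe (-0.50 and -0.16). Its 2 RefSeq probes gave 0.08 and 0.10 on the first array and -0.12 and -0.11 on the second.

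**Figure D1:**
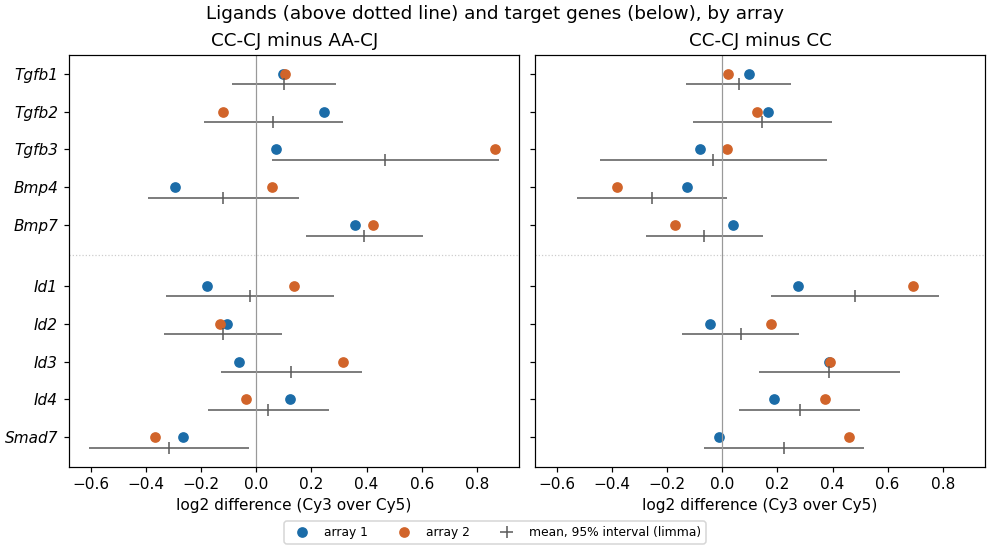
Log2 ratio of CC-CJ over AA-CJ (left) and over CC (right) for each gene on each array (coloured points), with the mean and 95% interval from limma below them. In CC-CJ minus AA-CJ Bmp7 sits at 0.36 and 0.42 and Tgfb3 at 0.07 and 0.86, and in CC-CJ minus CC Id1, Id3 and Id4 sit above 0 on both arrays, a direction that turns with median centring in place of loess.

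Cold jet takes neurons off the co-culture, and CC-CJ against CC asks what that does to the RNA that is left. Again 0 of the 10 genes passed the adjusted test, where 2.36% of all genes did, and 3 of 10 had an unadjusted p below 0.05, Id1, Id3 and Id4, against 16.9% of all genes. The ligands had a median log2 difference of -0.03 and the target genes one of 0.28, beside -0.024 for all genes. All 5 target genes had a mean above 0, between 0.07 and 0.48, but Id2 lay at -0.09 without its Ensembl-named probe. With median centring in place of loess the 5 lay at -0.12 for Id1, -0.47 for Id2, -0.37 for Id3, -0.25 for Id4 and -0.24 for Smad7, when 14584 genes were called.

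Id1, the Id gene most used as a readout of BMP signalling, gave log2 ratios of 0.27 and 0.69, a difference of 0.48 (SE 0.13, 95% interval 0.18 to 0.79, adjusted p = 0.134). Id3 gave 0.39 on both arrays, with a difference of 0.39 (SE 0.11, 95% interval 0.13 to 0.64, adjusted p = 0.145). Id4 gave 0.19 and 0.37, with a difference of 0.28 (95% interval 0.06 to 0.50, adjusted p = 0.204). In log2 intensity, Id1 stood at 11.61 and 11.83 in CC, below the 12.03 to 12.30 of CC-CJ and the 12.14 and 12.21 of AA-CJ, and Id3 stood at 13.95 and 14.12 in CC, below the 14.31 to 14.51 of CC-CJ. Smad7 gave -0.01 and 0.46 and Id2 gave -0.05 and 0.18, so that their arrays differed in sign. CC is also the RNA with the highest sums of neuron, microglia and fibroblast markers, and 2 oligodendrocyte lineage markers were called higher in it, whose part in these values was not tested.

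The ligands showed no common direction after cold jet. Bmp4, a BMP that acts on early neural cells, gave -0.13 and -0.38, a difference of -0.25 (95% interval -0.53 to 0.02, adjusted p = 0.325), with log2 intensities of 7.75 and 8.01 in CC against 7.61 to 7.72 in CC-CJ. Tgfb2 gave 0.16 and 0.13, and Tgfb1 gave 0.10 and 0.02. Tgfb3, at -0.08 and 0.02, and Bmp7, at 0.04 and -0.17, had 95% intervals of -0.44 to 0.38 and -0.28 to 0.15. Of the 10 genes, 5 were above 0 on both arrays (Tgfb1, Tgfb2, Id1, Id3 and Id4), against 26.8% of all genes, and Bmp4 alone was below 0 on both, against 38.3%.

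**Figure D2:**
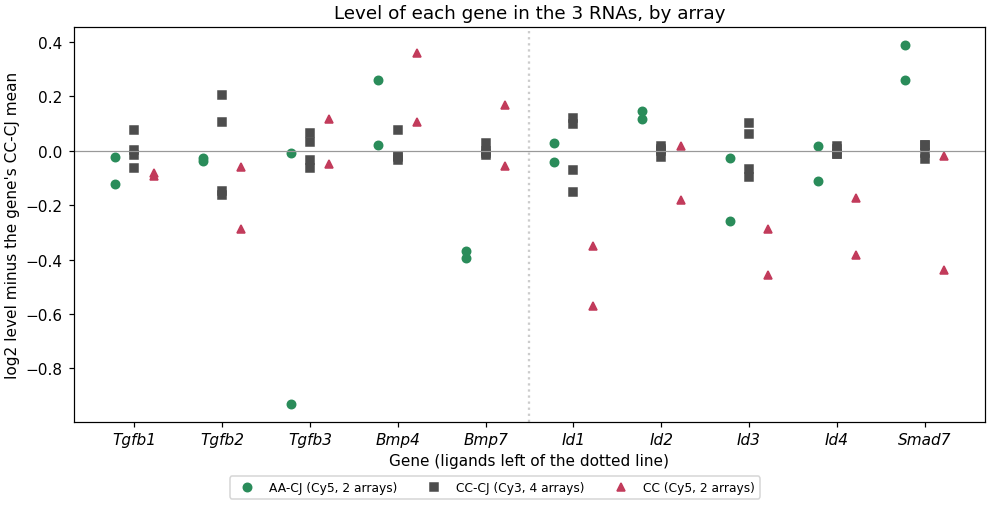
Normalised log2 intensity of each gene in AA-CJ (2 arrays, Cy5), CC-CJ (4 arrays, Cy3) and CC (2 arrays, Cy5), each point 1 array, with the mean of the 4 CC-CJ values of that gene subtracted. Id1 and Id3 are lowest in CC, Bmp7 is lowest in AA-CJ, and 1 AA-CJ sample of Tgfb3 lies apart from the other.

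Between the whole co-culture and astrocytes alone, both labelled with Cy5, none of the 10 genes passed the adjusted test. AA-CJ was jetted and CC was not, so that effects of co-culture and of cold jet cannot be told apart in this comparison. The target genes had values lower in CC, Id2 only through its Ensembl-named probe, and Bmp7 and Tgfb3 had values higher in CC on both arrays. In CC minus AA-CJ, 0 of 10 genes had an adjusted p below 0.05, where 2.66% of all genes did, and 3 of 10 had an unadjusted p below 0.05, Bmp7, Id1 and Smad7, against 17.8% of all genes. The median log2 difference was 0.13 for the ligands and -0.26 for the target genes, beside 0.0015 for all genes. For all 5 target genes, both CC arrays lay below both AA-CJ arrays when each was taken against its own CC-CJ, against 24.1% of all genes. Taken in the same way, both CC arrays lay above both AA-CJ arrays for 2 of the 5 ligands, Bmp7 and Tgfb3, against 26.2% of all genes. In Cy5 intensity alone Tgfb3 overlapped, with 9.52 and 8.60 in AA-CJ and 9.65 and 9.48 in CC. CC-CJ enters all 3 comparisons, so that they are not independent of one another.

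Smad7 had the largest difference of the 10, at -0.54 (SE 0.17, 95% interval -0.95 to -0.13, adjusted p = 0.180). Its log2 intensity in CC was 9.60 and 10.02, and in AA-CJ 10.30 and 10.43. Id1 followed at -0.51 (SE 0.18, 95% interval -0.94 to -0.07, adjusted p = 0.218). Id3 (-0.26, 95% interval -0.62 to 0.10), Id4 (-0.24, 95% interval -0.55 to 0.07) and Id2 (-0.19, 95% interval -0.49 to 0.11) had intervals that include 0. The 4 genes Id1, Id3, Id4 and Smad7 kept a value below 0 under every one of 12 alternatives, median centring among them. The left-out arrays among the 12 could not turn the sign, as both CC arrays lay below both AA-CJ arrays. The changes of probe filter returned the same values. With 1 array left out, Id1 ranged from -0.71 to -0.30, Id3 from -0.45 to -0.07, Id4 from -0.33 to -0.14 and Smad7 from -0.77 to -0.30. Id3 was nearest to 0 without the first AA-CJ array, and Id1, Id4 and Smad7 without the second CC array. Id2 turned to 0.03 when the median over its probes replaced the mean.

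Of the ligands, Bmp7 differed by 0.46 (SE 0.13, 95% interval 0.16 to 0.76, adjusted p = 0.135) and Tgfb3 by 0.50 (SE 0.24, 95% interval -0.08 to 1.08, adjusted p = 0.345). Both kept a value above 0 under the same 12 alternatives. Here too the left-out arrays could not turn the sign, and the changes of probe filter returned the same values. For Tgfb3 the size rested on a single array again: without the first AA-CJ array the difference was 0.90, and without the second it was 0.10. Bmp4 (0.13), Tgfb1 (0.04) and Tgfb2 (-0.08) lay closer to 0, with 95% intervals of -0.25 to 0.52, -0.23 to 0.31 and -0.44 to 0.27.

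**Figure D3:**
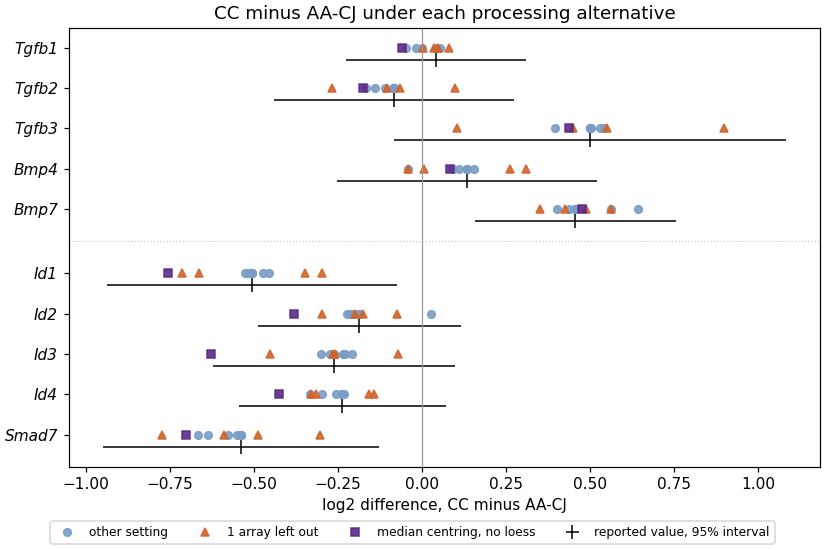
Log2 difference of CC minus AA-CJ for each gene as reported (black bar with 95% interval) and under each alternative (circles, with triangles for arrays left out and squares for median centring without loess). The values of Id1, Id3, Id4 and Smad7 stay below 0 and those of Bmp7 and Tgfb3 above 0 under all of them, and the Tgfb3 values spread from 0.10 to 0.90. For these genes leaving out 1 array could not turn the sign.

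Some target genes were measured by more than 1 probe, which gives a look at how far single probes carry a value. The 2 probes of Id4, at rn4 chr17:22525459-22525518 and chr17:22525981-22526040, differed by at most a few hundredths of a log2 unit on every array, with 0.11 and 0.14 on the first AA-CJ array and 0.36 and 0.39 on the second CC array. The 3 probes of Id3, between chr5:154934456 and chr5:154935396, averaged 0.18, 0.16 and 0.04 for CC-CJ minus AA-CJ and 0.32, 0.38 and 0.46 for CC-CJ minus CC. Id2 was different, as the probe with an Ensembl name, at chr6:42781039-42781098, averaged -0.33 and 0.38 in these comparisons, while the 2 probes of the RefSeq transcript NM_013060 averaged -0.02 and -0.01, and -0.10 and -0.08. Without the Ensembl-named probe, Id2 had log2 differences of -0.015 in CC-CJ minus AA-CJ, -0.09 in CC-CJ minus CC and 0.08 in CC minus AA-CJ. The position of Id2 with the other target genes in the last 2 comparisons thus rests on that probe. Id1 (NM_012797, chr3:143087157-143087216) and Smad7 (NM_030858, chr18:72323004-72323063) had 1 probe each, as had every ligand. Where these rn4 positions fall within each transcript was not analysed here.

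**Figure D4:**
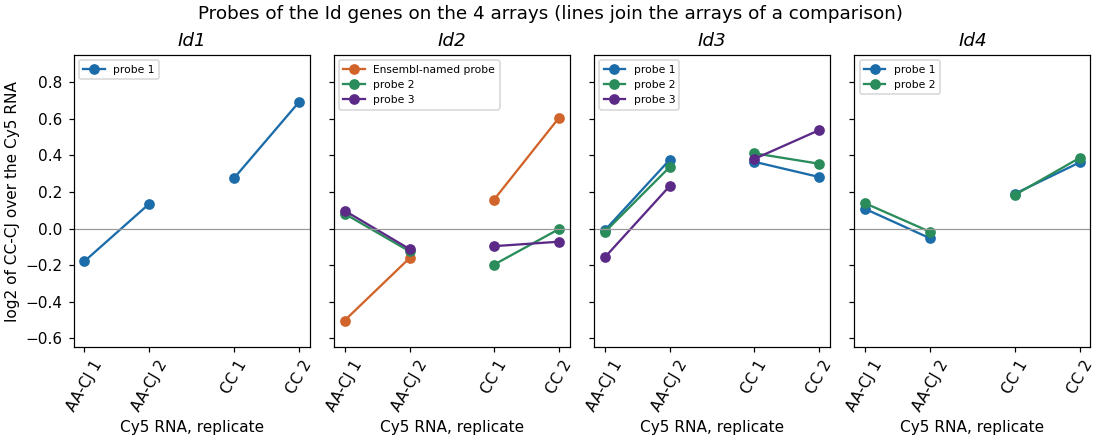
Log2 ratio of CC-CJ over the Cy5 RNA for every probe of Id1, Id2, Id3 and Id4 on the 4 arrays, after loess. The probes of Id3 and of Id4 run together, and the Ensembl-named probe of Id2 lies at -0.50 on the first AA-CJ array and 0.61 on the second CC array, apart from the other 2 probes of that gene.

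The rest of the pathway was read from lists of 102 other genes, of which 93 had a probe and 75 were tested. In CC-CJ minus AA-CJ, 3 of the 75 rose and 1 fell, against 3.10% of all genes called in either direction by the adjusted p of limma. In CC-CJ minus CC 1 rose and 5 fell, against 2.36%, and in CC minus AA-CJ 3 rose and 0 fell, against 2.66%. Neurod1 and Neurod2 are among the 5 and Neurod2 among the 3, and both passed the probe filter only through CC. None of the 9 tested receptors and co-receptors, 9 Smads and Smad regulators, 7 genes of latency and activation or 8 other BMP target genes passed in any comparison. Between 0 and 2 genes of each list had an unadjusted p below 0.05, against 22.6%, 16.9% and 17.8% of all genes in the 3 comparisons. The 2 were among the 7 genes of latency and activation in CC-CJ minus CC, and the Smads and Smad regulators had 0 in each comparison. The other BMP target genes, such as Hey1 and Smad6, had medians of 0.03, -0.02 and 0.03 in the 3 comparisons, beside -0.02, 0.28 and -0.26 for Id1 to Id4 and Smad7. Tgfbr1 and Tgfbr2, the receptors of TGF-beta, differed by -0.03 and -0.006 in CC-CJ minus AA-CJ, and Bmpr1a, a BMP receptor, by -0.17 (adjusted p = 0.264), the mean of unlike probes that gave 0.13 and 0.007 on the AA-CJ arrays and -0.41 and -0.42. Acvrl1, a receptor best known from endothelium, stood at -0.20 (adjusted p = 0.287), Tgif1, a corepressor of Smads, at 0.17, and Zfyve9, which anchors Smads to endosomes, at -0.12.

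Among other ligands, Gdf15, a distant member of the family made by stressed cells, rose in CC-CJ over AA-CJ by 0.83 (SE 0.12, adjusted p = 0.0244), with log2 ratios of 1.06 and 0.61. Without the first AA-CJ array its adjusted p was 0.0976. Bmp2 gave -0.24 and -0.28 (adjusted p = 0.127), a mean of unlike probes, as one averaged close to 0 and the other was at -0.56 and -0.51. Chrdl1, a secreted BMP antagonist of astrocytes, rose by 0.58 (SE 0.10, adjusted p = 0.0403), from ratios of 0.47 and 0.69, but lay at -0.27 with median centring and lost its call with either AA-CJ array left out (adjusted p = 0.0973 and 0.140).

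Bgn, which encodes biglycan, a matrix proteoglycan that binds TGF-beta, fell by 1.13 on the log2 scale in CC-CJ against AA-CJ (adjusted p = 0.00541) and fell by 1.09 against CC (adjusted p = 0.00294). The first was -0.65 in the authors' table (adjusted p = 0.0517), -0.95 with Agilent's log ratio (adjusted p = 0.102) and -2.60 with median centring, and the second was -0.92 with Agilent's log ratio (adjusted p = 0.0968) and -2.07 with median centring. CC and AA-CJ, both in Cy5, differed by -0.04 for Bgn. Its ratio was between -0.97 and -1.25 on all 4 arrays, on which CC-CJ was always in Cy3, so that a dye effect and the condition cannot be told apart here. Dcn, encoding the related proteoglycan decorin, fell by 0.77 in CC-CJ against CC (adjusted p = 0.00554) and rose by 0.66 in CC over AA-CJ (adjusted p = 0.0420), the first call being lost without the second CC array (adjusted p = 0.0638) and the second with any 1 array left out (adjusted p from 0.0633 to 0.175). Sostdc1, a BMP antagonist singled out after its values were seen, had the widest uncalled difference of the lists, with ratios of 0.66 and 1.29 in CC-CJ against CC (adjusted p = 0.115) and -1.31 in CC minus AA-CJ (adjusted p = 0.116).

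The 13 other TGF-beta target genes had a median of 0.18 in CC-CJ minus AA-CJ and 0.28 in CC minus AA-CJ, with 0 called in either by limma and 5 and 4 of 13 at an unadjusted p below 0.05, against 22.6% and 17.8% of all genes. Fn1, encoding fibronectin, gave 0.31 and 0.32 in CC-CJ over AA-CJ (adjusted p = 0.0852). In CC-CJ minus CC, Tagln, which encodes an actin-binding protein of smooth muscle, rose by 0.60 (adjusted p = 0.0296), and Col1a2, a fibrillar collagen that also stood in the list of fibroblast markers, fell by 0.59 (adjusted p = 0.0311). Tagln lay at -0.12 with median centring and lost its call with either CC array left out (adjusted p = 0.0727 and 0.257). Col1a2 lost its call without the second CC array (adjusted p = 0.357). The summed intensity of 6 fibroblast and meningeal markers, Col1a2 and Dcn among them, was 59649 to 63278 in CC-CJ, 63404 to 65285 in AA-CJ and 68603 to 70960 in CC, and its part in these values was not tested.

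Id proteins act by holding bHLH factors, and 10 of these partners were tested. Tcf4, an E protein, gave -0.65 and -0.16 in CC-CJ against CC, a difference of -0.40 that was not called (limma, adjusted p = 0.208). What part neuron RNA has in its values was not tested. Tcf4 rose in CC-CJ over AA-CJ by 0.73 (SE 0.13, adjusted p = 0.0439), from ratios of 0.86 and 0.59, and in CC over AA-CJ by 1.13 (adjusted p = 0.0329). The first of these calls was lost with either AA-CJ array left out (adjusted p = 0.188 and 0.0615) and the value was -0.15 with median centring, and the second was lost without the first AA-CJ array (adjusted p = 0.0858). Neurod2, a factor of differentiating neurons, fell by 1.80 in CC-CJ against CC (adjusted p = 0.000416), with ratios of -1.87 and -1.74, and was higher in CC than in AA-CJ by 1.76 (adjusted p = 0.00207). It was well above background on 2 of 2 CC arrays, 2 of 4 CC-CJ arrays and 1 of 2 AA-CJ arrays. Neurod2 thus passed the probe filter only through CC, where it was highest, and the sizes are not settled. Neurod1, a related factor, fell by 0.58 in CC-CJ against CC (adjusted p = 0.0171), with ratios of -0.59 and -0.56. No CC-CJ or AA-CJ channel had it well above background, so that it too passed the filter only through CC and the size is not settled. The call was lost with either CC array left out (adjusted p = 0.0771 and 0.155), and the value was -0.03 with median centring. Tcf3, another E protein, gave -0.28 and -0.02 in CC-CJ over AA-CJ, from 2 probes that gave 0.10 and -0.66 on the first array. The probe of the first value carries an Ensembl name and a predicted symbol that has also been used for another gene, so that the mean may join different genes. Of all 13 calls in the pathway lists, those of Neurod1 and Neurod2 rest on genes that entered the test only through CC.

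**Figure D5:**
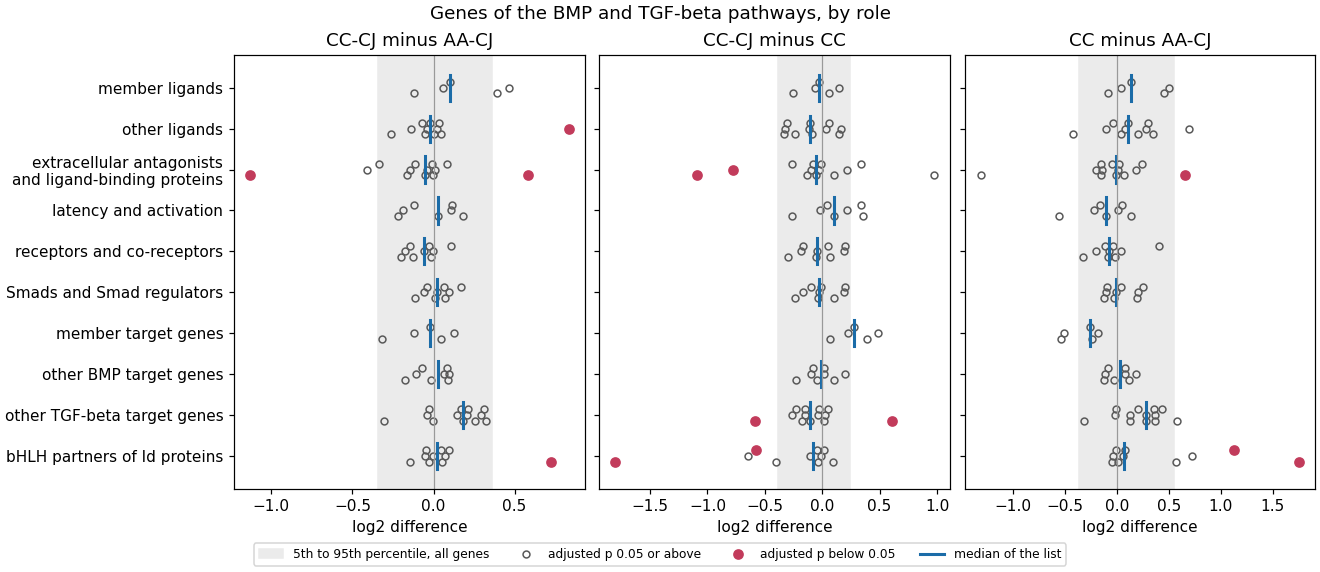
Log2 differences of the tested genes by role in the 3 comparisons, each circle 1 gene, filled where the adjusted p was below 0.05, with the median of each list as a bar and the 5th to 95th percentile of all genes in grey. The 5 target genes Id1 to Id4 and Smad7 lie above 0 in CC-CJ minus CC, which median centring turns, and below 0 in CC minus AA-CJ. Id2 does so in both only through its Ensembl-named probe. The filled points farthest out are Neurod2 and Bgn.

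Activators of the ligands and further BMP targets carried no call. Thbs1, an activator of latent TGF-beta, gave -0.27 and -0.17 in CC-CJ over AA-CJ (adjusted p = 0.176), Ltbp2, a latency-associated matrix protein, -0.10 and -0.27, and the BMP target genes Gata2 and Msx1 -0.17 and -0.11 on average. Thbs1 differed more in the other comparisons, by 0.34 in CC-CJ minus CC (adjusted p = 0.107) and -0.56 in CC minus AA-CJ (adjusted p = 0.0653).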

How the data were processed

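The 4 arrays were all on 1 slide. The authors deposited spot intensities of Agilent Feature Extraction 9.5.1.1 on a linear scale, with Agilent's log10 ratio of Cy5 over Cy3 beside them, and a table of processed log2 ratios (the methods name OLIN and OSLIN), whose medians per array were -0.025 to 0.0085 and whose base and direction were read from its slope on the scanner ratios (0.94 to 1.31 on the log2 scale, r 0.900 to 0.952). The centring of that table was not stated.

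Signals were corrected by normexp (offset 50) and loess (span 0.3) in R 4.3.3 with limma 3.58.1, and ratios turned to log2 of Cy3 over Cy5, so that a positive value is higher in CC-CJ. Outlier spots (121 to 179 per array) were left out. A probe was kept if all arrays of 1 RNA or more had it well above background (24864 of 41012), and kept probes were averaged per gene. Through RefSeq accessions 10835 of 16321 probes were named, the others by the names in the files, which can be old. lmFit and eBayes used 1 coefficient per comparison over all 4 arrays (2 residual degrees of freedom, prior 4.715), and CC minus AA-CJ is the difference of these coefficients. A gene was called at an adjusted p below 0.05 over 21365 genes. Log2 intensities per RNA were scaled by Aquantile. The number of arrays limits the precision.

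Named are the 10 genes, every gene of the pathway lists called with 1 sign on both arrays, the 2 genes of each list with the largest difference in CC-CJ minus AA-CJ, and the 3 genes nearest to the member with the largest difference. A gene that this rule names is not reported here. The 10 genes and the lists were chosen with earlier results of these data known. The steps were tested on simulated data. Alternatives covered background correction, normalization, the probe filter, the fit and each array left out. A group that lost an array kept a single one, so that its replicate spread does not enter an adjusted p given with that array left out.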

Additional observations from a re-analysis of the deposited data

How the results depend on the processing

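No gene of the 10 was called in any comparison with Agilent's log ratio, an offset of 16, the authors' table, no filter, a filter on all channels, the median over probes, an intensity trend, the arrays of 1 comparison alone, the selection criteria of the methods or the Cy5 channel alone. With median centring in place of loess, 7 were called in CC-CJ minus AA-CJ, 3 in CC-CJ minus CC and 0 in CC minus AA-CJ, and the values turned to -0.28 for Tgfb2, -1.0 for Id3 and -0.68 for Id4 in the first, and -0.47 for Id2 and -0.37 for Id3 in the second, along with the uncalled -0.27 of Chrdl1, -0.15 of Tcf4 and -0.12 of Tagln. The cause was not tested. Without the first AA-CJ array, Tgfb3 lay at 0.86 in CC-CJ minus AA-CJ and at 0.90 in CC minus AA-CJ. Such a fit has a single AA-CJ array, so that the spread between AA-CJ replicates does not enter it. Over 340 values of the 10 genes, 32 had another sign than the reported one, 11 of them with median centring. The changes of probe filter left every value as it was, as did leaving out an array that a comparison does not use. Such values could not turn.

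Replicate numbers did not pair the arrays (r = -0.112 over genes between the differences of the replicates). With the replicate number as a block, 0 of the 10 genes were called in each comparison, and 170, 312 and 294 of all genes. A pairing with crossed numbers, added after the data were seen, called 1, 0 and 0 of the 10 genes, and 1489, 849 and 828 of all genes. The number of all genes called was 662 in CC-CJ minus AA-CJ as reported (415 higher, 247 lower), 77 with Agilent's log ratio (69 higher, 8 lower), 336 with an offset of 16 (259 higher, 77 lower), 1121 with its own arrays alone, 122 to 1121 with 1 array left out and 14283 with median centring (7286 higher, 6997 lower). In CC-CJ minus CC it was 504 (21 higher, 483 lower), 274 with Agilent's log ratio, 290 with all channels above background, 204 to 688 with 1 array left out, 710 in the authors' table (157 higher, 553 lower) and 14584 with median centring (7981 higher, 6603 lower). In CC minus AA-CJ it was 568 (551 higher, 17 lower), 250 with Agilent's log ratio, 348 with all channels above background, 352 to 653 with 1 array left out, 1222 in Cy5 alone (1019 higher, 203 lower) and 1013 with median centring (640 higher, 373 lower), where the median of all genes was -0.15. Of the 13 calls in the pathway lists, 6 held with the replicate block (adjusted p from 0.0560 to 0.102 for the others), 8 with median centring and 3 with Agilent's log ratio. With 2 arrays per comparison, the smallest called difference was 0.41, 0.43 and 0.59 in log2. These are observed values that depend on the SE of each gene, and no limit of resolution was computed. Tgfb3 at 0.47 in the first comparison and Id1 at 0.48 in the second were larger and not called.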
